A study of Mus musculus with 7 samples.

Results

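The cholesterol synthesis genes described here are 8 genes of the mouse read-count table, *Srebf2*, *Hmgcs1*, *Idi1*, *Fdps*, *Fdft1*, *Sqle*, *Lss* and *Cyp51*. Their symbols were listed with earlier results of these data known. All 8 were found among the 14819 rows of the table, and all 8 passed the filter on low counts, as 14779 rows did. RNA was sequenced from primary hepatocytes of male WT mice (n = 4) and male WDR6-WKO mice (n = 3), to ask how loss of WDR6 changes the hepatocyte transcriptome. WDR6-WKO mice lack an exon of *Wdr6* in every cell of the body through a CRISPR–Cas9 deletion, so the hepatocytes and any other liver cell in the culture carry it. The study's methods give a default age for its purchased C57BL/6J mice and state no age for the WDR6-WKO mice. Cells of both genotypes were isolated by collagenase perfusion, grown in William's E medium with fetal bovine serum, kept overnight and received no further treatment.

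Hepatocytes make cholesterol from acetyl-CoA through the mevalonate pathway. The transcription factor SREBP-2, the product of *Srebf2*, is held in the endoplasmic reticulum by SCAP and the INSIG proteins while sterols are plentiful. When sterols fall it moves to the Golgi, is cut by proteases, enters the nucleus and raises transcription of the synthesis enzymes and of genes for lipoprotein uptake. These transcripts therefore tend to move together when sterol supply changes. HMG-CoA synthase (*Hmgcs1*), isopentenyl diphosphate isomerase (*Idi1*) and farnesyl diphosphate synthase (*Fdps*) belong to the part of the pathway that builds isoprenoids. Squalene synthase (*Fdft1*), squalene epoxidase (*Sqle*), lanosterol synthase (*Lss*) and lanosterol demethylase (*Cyp51*) belong to the part that builds sterols.

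Promoter sequence was available from RefSeq (GRCm38.p6) for 5 of the 8 genes, *Srebf2*, *Hmgcs1*, *Idi1*, *Lss* and *Cyp51*. In these genes the 250 bases before RefSeq's start site were searched on both strands for letters that the sterol response is known to use. The core of the sterol regulatory element, TCACNCCAC, was found in 1 of the 5, *Hmgcs1*, and in 1.05% of all 32851 promoter windows of the same length. A looser form, TCACNNCA, chosen after the sequences had been seen, matched in 3 of the 5, *Srebf2*, *Hmgcs1* and *Cyp51*, and in 11.4% of all windows. The NF-Y box, CCAAT, was present in 5 of 5 against 33.8% of all windows, and the Sp1 box, GGGCGG, in 5 of 5 against 32.7%. Some of these matches lie in bases that a GENCODE transcript of the gene already covers. They are the NF-Y boxes and the Sp1 box of *Idi1*, within 105 such bases, and the NF-Y box of *Cyp51*, within 49. The full sterol regulatory element of 10 letters was found in 0 of 5 and in 0.0731% of all windows, and the E-box CACGTG in 0 of 5 and in 6.02%. Every match to TCACNCCAC is also a match to the looser form. A match is a description of letters and no measure of binding. The stretches of 90 bases below show how the matches lie in 4 of these genes, 5′ to 3′ on the strand of the gene, with matches to the element and to the NF-Y box (CCAAT, or ATTGG on the other strand) in capitals. They end before the first base that a GENCODE transcript of the gene covers, and that limit left no NF-Y box of *Idi1* or *Cyp51* to show.
*Srebf2*, chr15:82147066-82147155, plus strand: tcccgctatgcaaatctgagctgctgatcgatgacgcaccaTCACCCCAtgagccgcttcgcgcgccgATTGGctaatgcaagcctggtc
*Hmgcs1*, chr13:119690173-119690262, plus strand: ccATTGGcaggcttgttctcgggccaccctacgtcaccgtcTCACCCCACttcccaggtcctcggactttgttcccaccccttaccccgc
*Lss*, chr10:76531498-76531587, plus strand: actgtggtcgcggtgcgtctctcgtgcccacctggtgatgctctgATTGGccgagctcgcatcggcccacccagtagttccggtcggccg
*Cyp51*, chr5:4104747-4104836, minus strand: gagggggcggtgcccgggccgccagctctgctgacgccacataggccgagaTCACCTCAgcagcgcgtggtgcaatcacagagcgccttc
In *Hmgcs1* the core and an inverted NF-Y box stand within the same 90 bases. In its stretch, *Srebf2* shows the looser form with an inverted NF-Y box, *Cyp51* the looser form alone, and *Lss* an NF-Y box alone. The NF-Y box of *Cyp51* begins 29 bases before RefSeq's start and so lies outside its stretch.

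The libraries held between 17816913 and 23668940 counted reads. Levels are CPM, the counts of a gene relative to the TMM-scaled total of its library, and values after ± are the s.d. over the libraries of a genotype (n = 4 for WT, n = 3 for WDR6-WKO). Differences are log2 fold changes of WDR6-WKO against WT from edgeR's quasi-likelihood test, with p-values adjusted by Benjamini-Hochberg over all genes tested. For *Wdr6* itself, WT hepatocytes had 44.0 ± 4.03 CPM and WDR6-WKO hepatocytes 2.38 ± 0.179 CPM, and the highest WDR6-WKO library (2.58 CPM) was far below the lowest WT library (40.6 CPM). Of 9 hepatocyte markers tested, 5 were lower and 1 was higher in WDR6-WKO, beside 6.18% lower and 6.65% higher over all genes. Summed over the list they reached 10407 to 12365 CPM in WT libraries and 9310 to 9911 CPM in WDR6-WKO libraries. Most of these sums is *Alb*, at 7366 ± 730 CPM in WT and 6480 ± 363 CPM in WDR6-WKO. *Alb* itself did not pass (adjusted p = 0.10, edgeR), and its ranges overlapped. Of 11 Kupffer cell markers, 2 were higher (*C1qc* and *C1qb*, 18.2% of the list) and 0 lower, beside the same shares over all genes. Their sums were 812 to 890 CPM in WT and 914 to 1116 CPM in WDR6-WKO, and Kupffer cells are the resident macrophages of the liver. In bulk RNA, fewer cells of a type and less RNA per cell cannot be told apart. WDR6-WKO replicate 3 stood apart from the other WDR6-WKO libraries. Over all genes, 983 were higher and 914 lower in WDR6-WKO, and without this library the counts were 2150 and 2083, so results that rest on it are given with and without it.

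None of the 8 cholesterol synthesis genes passed an adjusted p of 0.05 in either direction, where 12.8% of all genes tested did (6.65% higher and 6.18% lower). By an unadjusted p under 0.05 the count was 1 of 8, *Idi1*, against 28.1% of all genes. By the study's own thresholds, an unadjusted p under 0.05 together with a log2 difference of 0.35 or more in size, it was 0 of 8 against 10.4%. The ranges of WT and WDR6-WKO libraries were apart for 0 of 8 genes, against 23.5% of all genes. On the log2 scale the 8 genes had a median difference of -0.01, beside 0.01 over all genes tested, and DESeq2 and limma-voom also called 0 of 8. With 8 genes, 12.8% of all genes is a background of about 1 gene, so a count of 0 does not set these genes apart.

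*Srebf2* codes for SREBP-2, the factor that drives the rest of the pathway. Its level in the WT libraries was 162.0, 167.1, 157.9 and 160.0 CPM, and in the WDR6-WKO libraries 160.3, 153.3 and 147.1 CPM. WDR6-WKO replicate 1 fell inside the WT range and the other two fell below it. The log2 fold change was -0.07 (SE 0.05, adjusted p = 0.35, edgeR), and its 95% confidence interval ran from -0.18 to 0.03, which is -11.7% to 2.08% on the linear scale. This was the narrowest interval among the 8 genes.

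*Hmgcs1* codes for the synthase that makes HMG-CoA, the substrate of the rate-limiting reductase. Its WT levels were 81.2, 89.0, 104.2 and 94.3 CPM, and its WDR6-WKO levels 86.6, 78.6 and 92.9 CPM. The WT libraries alone spanned most of the values seen, with a coefficient of variation of 10.5%. The log2 fold change was -0.10 (SE 0.08, adjusted p = 0.44, edgeR), with an interval from -0.27 to 0.07. It was -0.04 without WT replicate 3 or WDR6-WKO replicate 2 and -0.16 without WT replicate 1 or WDR6-WKO replicate 3, and passed in none of these.

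*Idi1* converts isopentenyl diphosphate to its isomer, the step that starts isoprenoid assembly, and it gave the lowest p of the 8 genes. It measured 38.3, 40.0, 45.2 and 40.2 CPM in WT and 35.9, 31.0 and 39.4 CPM in WDR6-WKO. Replicates 1 and 2 of WDR6-WKO lay below every WT library, while replicate 3 lay inside the WT range. The log2 fold change was -0.21 (SE 0.08, unadjusted p = 0.0238, adjusted p = 0.114, edgeR), or -13.4%, with an interval from -23.4% to -2.17%. Without WDR6-WKO replicate 3 the log2 fold change was -0.29 with an adjusted p of 0.00346 (edgeR), and *Idi1* was then the only gene of the 8 called. Over all genes, 2150 were then higher and 2083 lower of 14796 tested. With each other library left out in turn it did not pass, and the value nearest 0 was -0.12. Part of the *Idi1* transcript is found elsewhere in the genome, since 21.3% of its stretches of 50 bases also occur in the pseudogene *Gm13502*, for which the table holds 94 reads over the 7 libraries.

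*Fdps*, whose product feeds both the sterol branch and protein prenylation, was the least counted member. It had 27, 27, 28 and 22 reads in the WT libraries and 36, 23 and 34 reads in the WDR6-WKO libraries. These counts correspond to 1.34 ± 0.167 CPM and 1.49 ± 0.406 CPM. The log2 fold change was 0.14 (SE 0.25, adjusted p = 0.77, edgeR), and its interval, from -0.40 to 0.69, was the widest of the 8. Without WDR6-WKO replicate 3 it was -0.05. In the GENCODE annotation 86.4% of the 50-base stretches of *Fdps* also occur in other genes. The overlapping gene *Gm43738* holds 77.3% of the *Fdps* stretches and the pseudogene *Gm3571* holds 40.1%, with stretches that both hold counted for each. The table gave *Gm3571* 643 reads over the 7 libraries, beside 197 for *Fdps* itself. *Gm3571* was higher in WDR6-WKO, at 5.48 ± 0.837 CPM against 3.75 ± 0.478 CPM in WT, and its log2 fold change was 0.55 (adjusted p = 0.0316, edgeR). It was looked at because of this shared sequence, after its values had been seen. How the authors' counting divided such reads was not given in the sources used here, so both the level and the difference of *Fdps* are uncertain.

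*Fdft1* catalyses the first step committed to sterols, the joining of farnesyl diphosphate into squalene. It measured 45.6, 44.8, 49.4 and 42.5 CPM in WT and 47.3, 40.9 and 47.9 CPM in WDR6-WKO, which are overlapping ranges. The log2 fold change was -0.01 (SE 0.07, adjusted p = 0.97, edgeR), with an interval from -0.16 to 0.15. Its exons overlap those of *Ctsb*, the gene of the protease cathepsin B on the opposite strand, over 18.3% of their bases. *Ctsb* had 238468 reads over the 7 libraries and was higher in WDR6-WKO, at 1833 ± 52.9 CPM against 1579 ± 11.2 CPM in WT. The strand setting of the authors' counting was not given in the sources used here, so reads of *Ctsb* cannot be told apart from reads of *Fdft1* in the overlap.

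*Sqle*, *Lss* and *Cyp51* act in turn on squalene, on its epoxide and on lanosterol. *Sqle* measured 64.3, 65.9, 69.0 and 70.9 CPM in WT and 70.8, 66.1 and 64.0 CPM in WDR6-WKO, a log2 fold change of -0.01 with an interval from -0.14 to 0.11. *Cyp51* measured 62.3, 68.3, 79.6 and 74.9 CPM in WT and 74.8, 68.1 and 71.1 CPM in WDR6-WKO, where all 3 libraries lay inside the WT range. Its log2 fold change was 0.00 with an interval from -0.16 to 0.16. *Lss* measured 29.1, 27.9, 29.8 and 30.7 CPM in WT and 35.9, 31.0 and 29.1 CPM in WDR6-WKO. WDR6-WKO replicates 1 and 2 were above every WT library of *Lss* and replicate 3 was not, and the log2 fold change was 0.13 (SE 0.08, adjusted p = 0.33, edgeR) with an interval from -0.04 to 0.29. Without WDR6-WKO replicate 3, *Lss* reached 0.19 with an adjusted p of 0.0539, and without WDR6-WKO replicate 1 it was 0.03 with an adjusted p of 0.884.

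**Figure D1:**
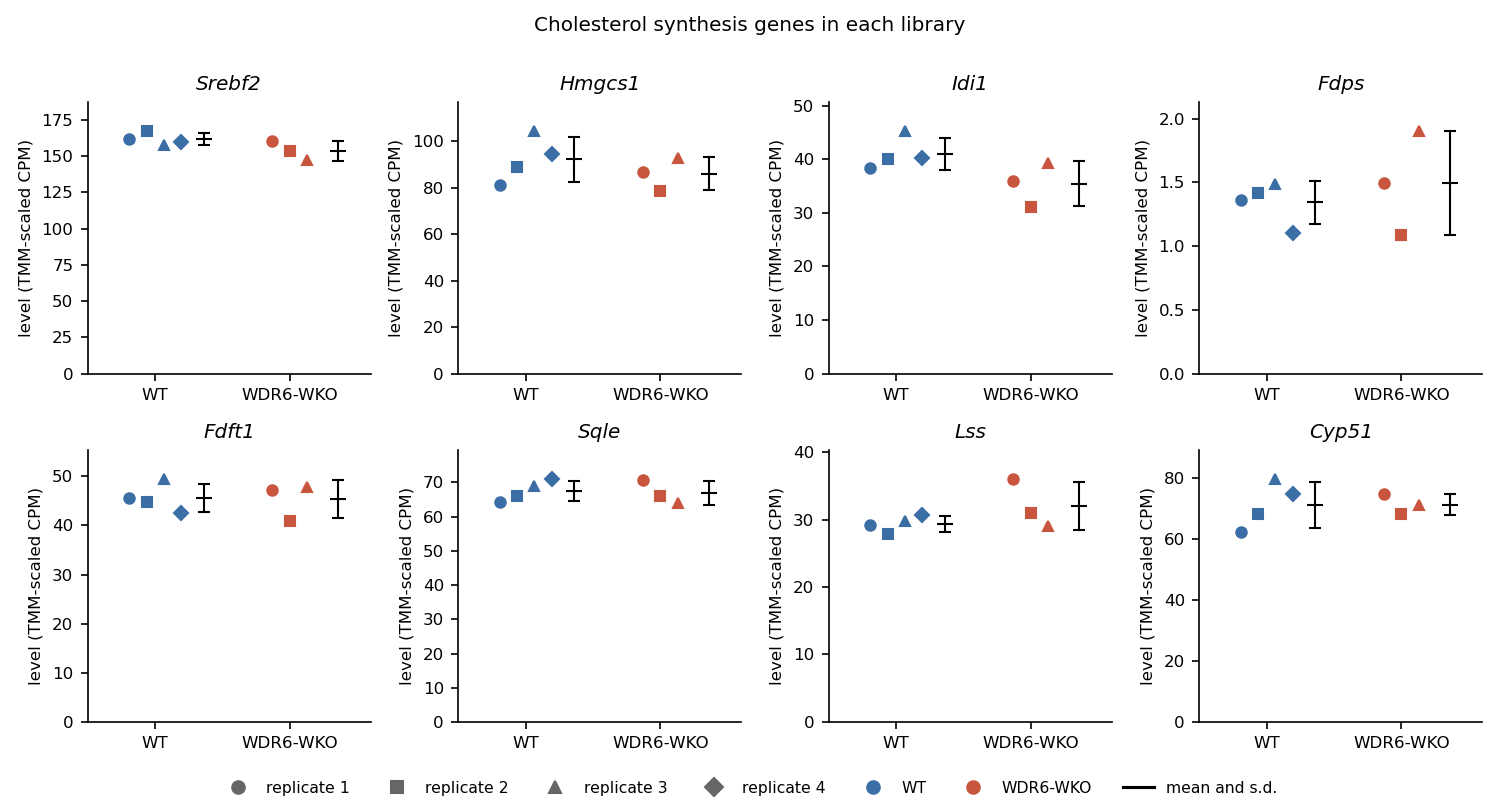
Levels of the 8 cholesterol synthesis genes in TMM-scaled CPM (vertical axes, each from 0), with WT libraries in blue and WDR6-WKO libraries in red, a marker shape per replicate number, and black bars for the mean and s.d. of each genotype. The ranges of the genotypes overlap in all 8 panels, and *Idi1* comes nearest to separation, with 31.0 to 39.4 CPM in WDR6-WKO against 38.3 to 45.2 CPM in WT.

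Levels were compared between genes per kilobase of merged exon. In WT the order ran from *Srebf2* at 31.9 ± 0.777 CPM per kb through *Hmgcs1* at 26.5 ± 2.78, *Sqle* at 24.5 ± 1.08, *Cyp51* at 18.1 ± 1.93, *Idi1* at 13.5 ± 0.987, *Fdft1* at 12.3 ± 0.772 and *Lss* at 6.30 ± 0.254 to *Fdps* at 0.924 ± 0.115. The ranges of neighbours in this order were apart except for *Hmgcs1* with *Sqle* and *Idi1* with *Fdft1*. In WDR6-WKO the order was the same but for *Idi1* (11.7 ± 1.38 CPM per kb) and *Fdft1* (12.3 ± 1.04), which changed places, again with overlapping ranges. Lengths of the longest coding transcript in place of merged exons gave the same order in WT. The last place of *Fdps* carries the shared sequence described above.

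**Figure D2:**
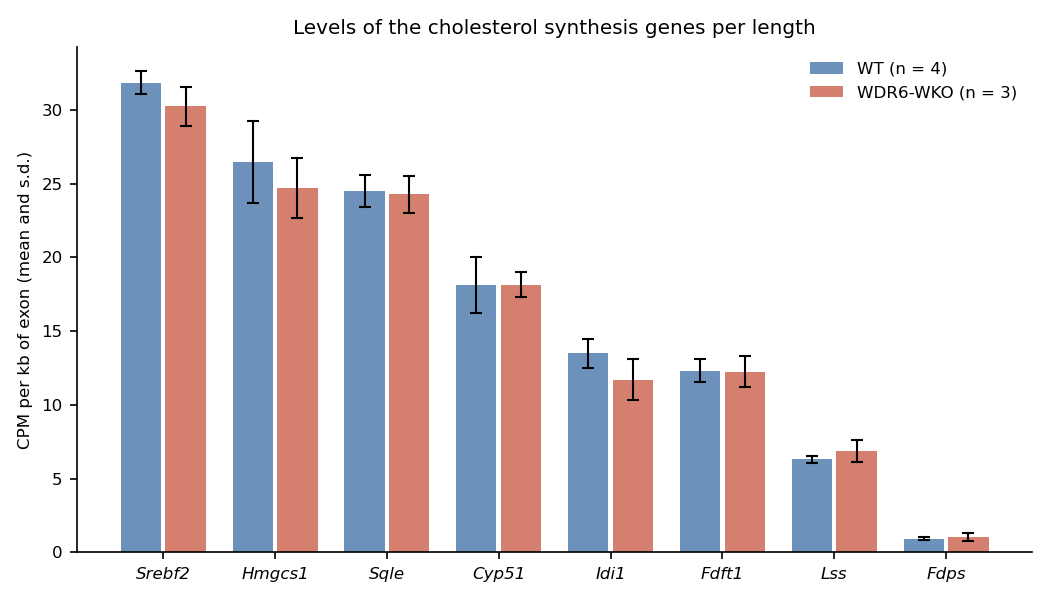
Mean level of each cholesterol synthesis gene in CPM per kb of merged exon (vertical axis, from 0), in WT (blue, n = 4) and WDR6-WKO (red, n = 3), with bars for the s.d. over libraries and genes in the order of their WT level. The profile falls from 31.9 CPM per kb for *Srebf2* to 0.924 for *Fdps* in WT, and the same fall is seen in WDR6-WKO.

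The 8 genes were next compared library by library, after removing the mean of each genotype from log2 CPM. Over the 7 libraries 19 of 28 pairs had a Pearson r above 0, with a median of 0.35. The highest r joined *Hmgcs1* with *Idi1* (0.91), *Fdps* with *Fdft1* (0.89), *Hmgcs1* with *Cyp51* (0.87) and *Sqle* with *Lss* (0.86). *Srebf2* had its lowest r with *Hmgcs1* (-0.47) and *Idi1* (-0.44) and its highest with *Lss* (0.53). These are descriptions over few libraries that share depth and handling within each library. In WT replicate 3, *Hmgcs1*, *Idi1*, *Fdft1* and *Cyp51* stood 0.12 to 0.18 log2 units above the WT mean. In WDR6-WKO replicate 2 the same 4 genes stood between -0.18 and -0.07 from the WDR6-WKO mean. These 4 genes were grouped after their values had been seen.

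**Figure D3:**
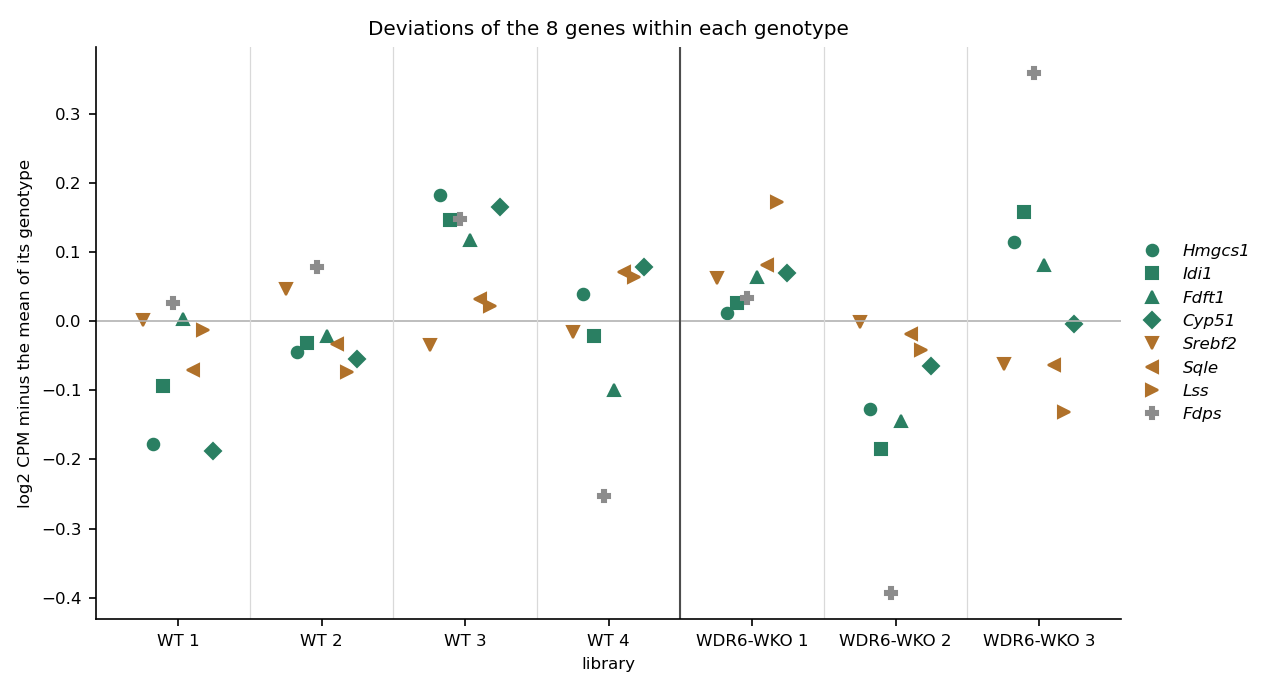
Deviation of each cholesterol synthesis gene from the mean of its genotype in log2 CPM (vertical axis) for each of the 7 libraries (horizontal axis, WT left of the dark line), with *Hmgcs1*, *Idi1*, *Fdft1* and *Cyp51* in green, *Srebf2*, *Sqle* and *Lss* in brown, and *Fdps* in grey. The green points lie together above 0 in WT replicate 3 and below 0 in WDR6-WKO replicate 2, and *Fdps*, with 22 to 36 reads a library, is the most scattered.

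The pattern of *Hmgcs1* was also found in enzymes outside the 8. Within genotypes, its r was 0.95 with *Nsdhl*, 0.90 with *Msmo1*, 0.86 with *Acat2* and 0.85 with *Hsd17b7*, all enzymes of the same pathway. Other enzymes ran against it, with r of -0.74 for *Mvd* and -0.80 for *Ebp*. Over 21 enzymes of the pathway, the GC content of the transcript and the r with *Hmgcs1* had a Pearson r of -0.63 and a Spearman rho of -0.66. GC content also had a Pearson r of -0.56 with the signed log2 difference of WDR6-WKO replicate 3 from the mean of the other WDR6-WKO libraries. Enzymes of higher GC content thus tended to lie lower in replicate 3, such as *Mvd* (59.3% GC, -0.63). The part of base composition in these correlations was not tested.

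Among 9231 genes of at least 10 CPM outside the lists, *Cog4* was most like the mean of the 8 genes over the 7 libraries, with a Pearson r of 0.99. *Ogfod1* and *Tifa* followed, each at 0.94, and *Abhd13* and *Tram2*, each at 0.93. The most opposed were *Tyms* (-0.98), *Sirt7* (-0.97) and *Tdp2* (-0.93). The mean of the 8 genes ranged only from -0.13 log2 units in WDR6-WKO replicate 2 to 0.11 in WT replicate 3 around its own average, so these likenesses rest on small movements. They are also the extremes of 9231 genes ranked over only 7 libraries. The r of the members themselves with this mean ran from -0.02 (*Srebf2*) to 0.88 (*Fdft1*). None of the 8 genes named here as most alike or most opposed passed the test between genotypes. They were chosen for following or opposing a mean that differs little between genotypes, so this outcome largely follows from the choice.

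The genes that hold or release SREBP-2 were examined as a list of 12, of which WDR6-WKO hepatocytes had 0 at a higher and 3 at a lower level. These are 0% and 25%, beside 6.65% and 6.18% of all genes tested. The median of the list was -0.06 log2 units. *Insig2*, which codes for an endoplasmic reticulum protein that retains the SCAP and SREBP complex, measured 91.6, 95.5, 97.4 and 94.7 CPM in WT and 75.8, 74.5 and 74.6 CPM in WDR6-WKO. All WDR6-WKO libraries lay below all WT libraries, and *Insig2* fell by 20.9% (log2 fold change -0.34, SE 0.05, adjusted p = 3.7e-04, edgeR). *Rnf145*, a ubiquitin ligase of sterol sensing, measured 60.5, 58.5, 56.1 and 56.9 CPM in WT and 47.6, 47.2 and 43.8 CPM in WDR6-WKO, and fell by 20.3% (log2 fold change -0.33, SE 0.06, adjusted p = 0.0018, edgeR). Both calls were kept with every library left out in turn.

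*Srebf1*, which codes for the SREBP-1 proteins that drive fatty acid synthesis, measured 132.6, 124.4, 125.9 and 123.5 CPM in WT and 121.8, 107.5 and 98.6 CPM in WDR6-WKO. It fell by 13.6% (log2 fold change -0.21, SE 0.07, adjusted p = 0.044, edgeR). The call was lost in 7 of 15 alternatives, among them leaving out any single WT library or WDR6-WKO replicate 2, where the adjusted p reached up to 0.137. *Scap*, the escort of SREBP, had a log2 fold change of -0.06 with an interval from -0.18 to 0.07. *Insig1*, itself a target of SREBP-2, had 0.02 with an interval from -0.14 to 0.18. *Ubxn4* and *Erlin2*, which serve protein degradation at the endoplasmic reticulum, did not pass, at log2 fold changes of 0.02 and -0.11.

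Of 15 other enzymes of the mevalonate and sterol pathway tested, 0 were higher and 1 lower (6.67%), beside 6.65% and 6.18% of all genes. The median of the list was -0.01 log2 units. *Msmo1*, a demethylase after *Cyp51* in the pathway, and *Sc5d*, a late desaturase, had log2 fold changes of 0.15 (adjusted p = 0.25) and 0.04 (adjusted p = 0.73, edgeR). Without WDR6-WKO replicate 3 the kinase gene *Pmvk* and the decarboxylase gene *Mvd* passed as higher, at 0.58 and 0.46, and *Acat2* passed as lower at -0.21. Many more genes passed in that setting, 2150 higher and 2083 lower of 14796 tested.

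Farnesyl and geranylgeranyl diphosphate also serve ubiquinone, dolichol and prenylated proteins. Of 11 genes of these branches 0 were higher and 0 lower at the adjusted threshold, beside 6.65% and 6.18% of all genes. An unadjusted p under 0.05 in edgeR was passed by 0, beside 28.1% of all genes. Their log2 fold changes ran from -0.14 to 0.19. *Nus1* of dolichol synthesis, *Icmt* of prenylated protein processing and *Coq2* of ubiquinone synthesis, the most highly counted, had 0.06, 0.05 and 0.07.

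Lipoprotein uptake and movement of sterol inside the cell gave 2 higher and 1 lower gene of 15 tested. These are 13.3% and 6.67%, beside 6.65% and 6.18% of all genes. *Npc2*, a carrier that brings cholesterol out of lysosomes, measured 144.2, 141.7, 137.4 and 133.6 CPM in WT and 162.7, 170.3 and 151.7 CPM in WDR6-WKO. It rose by 16.1% (log2 fold change 0.22, SE 0.05, adjusted p = 0.014, edgeR). *Gramd1b*, which moves cholesterol from the plasma membrane to the endoplasmic reticulum, had 9.44 ± 0.547 CPM in WT hepatocytes and 11.9 ± 1.11 CPM in WDR6-WKO hepatocytes, which is 0.34 on the log2 scale (adjusted p = 0.047, edgeR). *Lrp1*, an endocytic receptor for lipoprotein remnants, had 940.2 ± 32.1 CPM in WT hepatocytes and 827.0 ± 49.6 CPM in WDR6-WKO hepatocytes, which is -0.19 on the log2 scale (adjusted p = 0.024, edgeR). These calls depended on single libraries. *Npc2* missed the threshold without WT replicate 3 or 4 or WDR6-WKO replicate 1 or 2 (adjusted p of up to 0.0794), and *Gramd1b* when any single library other than WDR6-WKO replicate 3 was left out (up to 0.206). *Lrp1* missed it without WT replicate 1, 3 or 4 or WDR6-WKO replicate 2 (up to 0.0900). *Lipa*, the lysosomal lipase, had a log2 fold change of -0.08 with an adjusted p of 0.32 (edgeR). Without WDR6-WKO replicate 3 it passed as lower, at -0.11 with an adjusted p of 0.0353, as did 2083 of 14796 genes tested.

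Efflux and esterification gave 2 higher and 1 lower gene of 10 tested, which are 20% and 10%, beside 6.65% and 6.18% of all genes. *Soat2*, the enzyme that esterifies cholesterol in hepatocytes, measured 10.1, 8.06, 7.98 and 7.38 CPM in WT and 16.2, 24.5 and 17.8 CPM in WDR6-WKO. The lowest WDR6-WKO library stood above the highest WT library, and the fold was 2.32 (log2 fold change 1.22, SE 0.14, adjusted p = 7.2e-05, edgeR). *Abca1*, the exporter that loads cholesterol onto apolipoprotein A-I, measured 243.5, 232.9, 264.7 and 271.1 CPM in WT and 194.3, 189.7 and 214.8 CPM in WDR6-WKO. *Abca1* fell by 21.1% (log2 fold change -0.34, SE 0.06, adjusted p = 0.0016, edgeR), and both calls were kept with every library left out. *Abcg1*, an exporter that macrophages also use, had 17.6 ± 1.63 CPM in WT hepatocytes and 22.5 ± 3.45 CPM in WDR6-WKO hepatocytes, which is 0.36 on the log2 scale (adjusted p = 0.035, edgeR). Its call was lost without WT replicate 1, 3 or 4 or WDR6-WKO replicate 1 or 2 (adjusted p of up to 0.213).

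*Npc2* and *Abcg1* are also genes of macrophages. WDR6-WKO replicate 2 was the highest library for *Npc2*, *Abcg1* and the summed Kupffer cell markers (1116 CPM), and WDR6-WKO replicate 3 the lowest of its genotype for all of them (914 CPM for the sum). *Gramd1b* had the same order (12.1, 12.9 and 10.7 CPM in WDR6-WKO replicates 1 to 3). *Abca1*, called in the same list as *Abcg1*, had the opposite order, at 194.3, 189.7 and 214.8 CPM. The part of Kupffer cells in the values of *Npc2*, *Abcg1*, *Gramd1b* and *Abca1* was not tested. Over all 5 lists 4 of 63 genes tested were higher (6.35%) and 6 lower (9.52%), beside 6.65% and 6.18% of all genes tested, and their median was -0.01 log2 units.

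**Figure D4:**
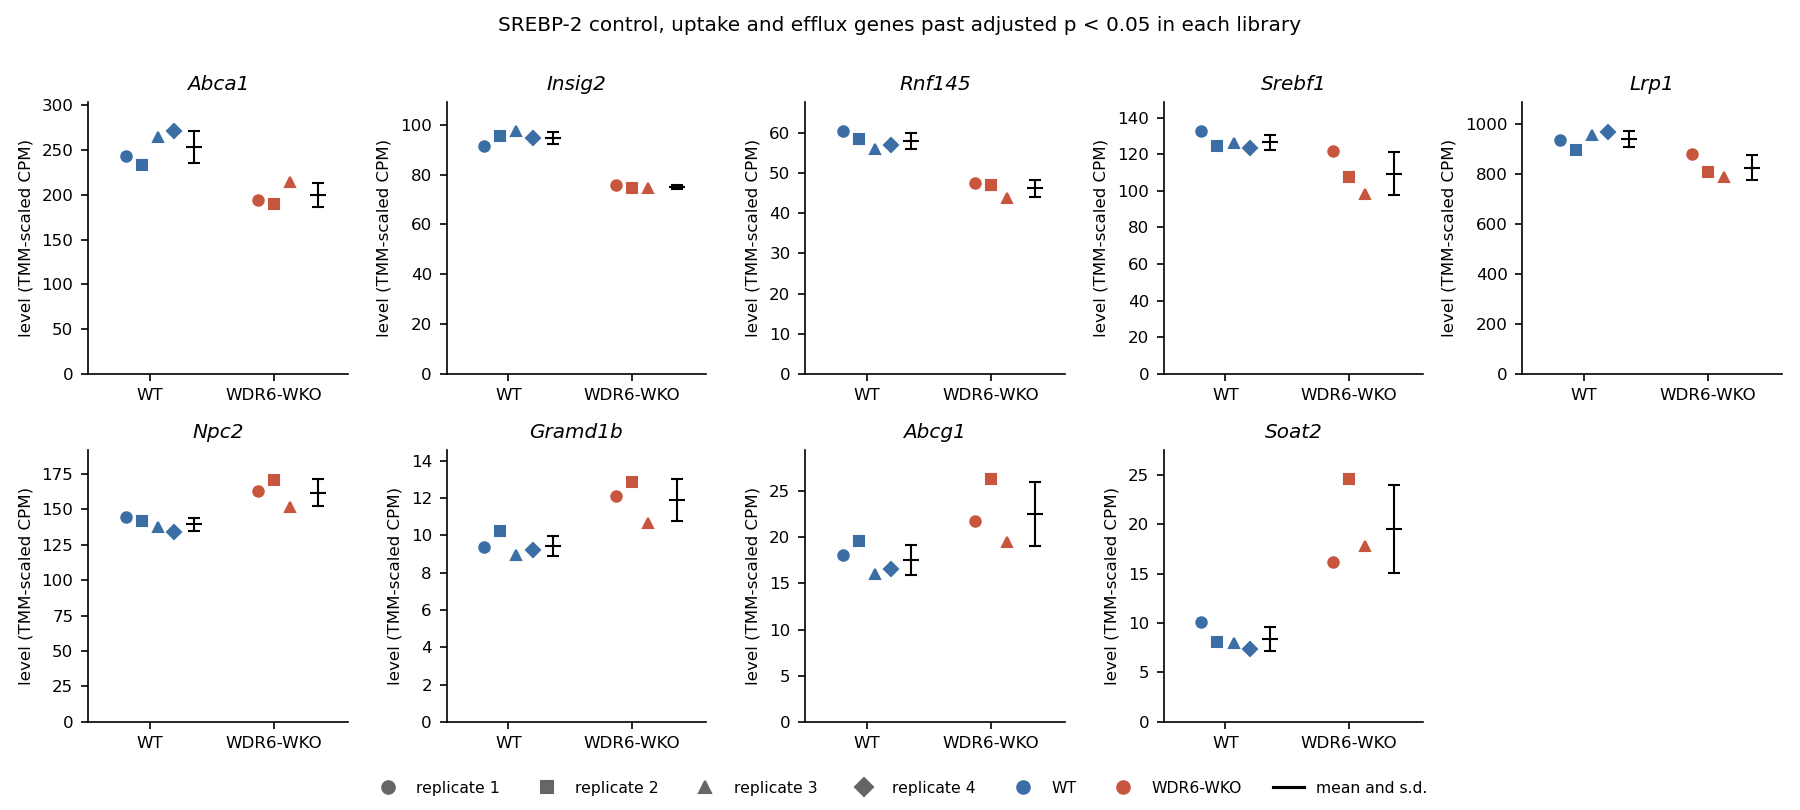
Levels in TMM-scaled CPM (vertical axes, each from 0) of the 9 genes that passed an adjusted p of 0.05 in the lists for SREBP-2 control, uptake and efflux, ordered from the lowest to the highest log2 fold change, with WT libraries in blue, WDR6-WKO libraries in red and bars for the mean and s.d. *Soat2* stands at 16.2 to 24.5 CPM in WDR6-WKO against 7.38 to 10.1 CPM in WT, and *Insig2*, *Rnf145* and *Abca1* lie lower in every WDR6-WKO library.

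**Figure D5:**
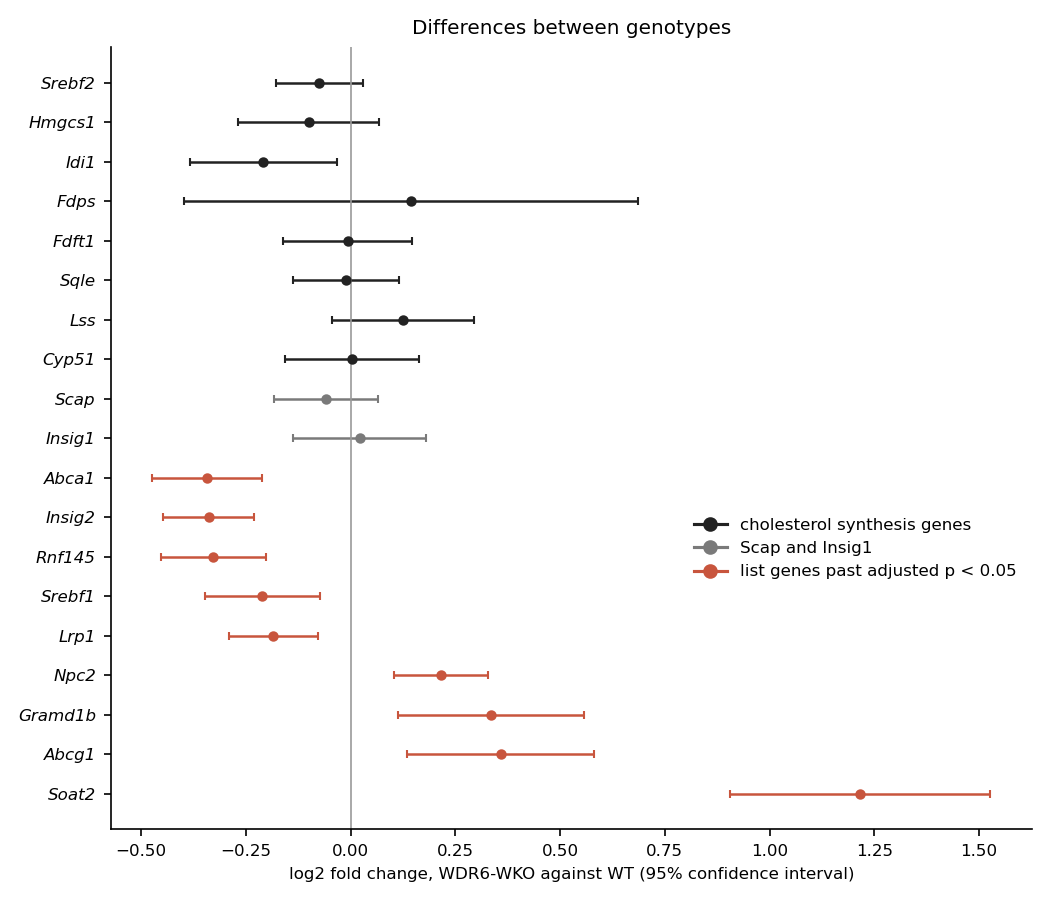
Log2 fold change of WDR6-WKO against WT (horizontal axis) with its 95% confidence interval for the 8 cholesterol synthesis genes (black), *Scap* and *Insig1* (grey) and the 9 genes past an adjusted p of 0.05 in the lists for SREBP-2 control, uptake and efflux (red). The interval of *Idi1*, from -0.38 to -0.03, is the only one of the black intervals that leaves out 0 before adjustment over all genes, and that of *Fdps* is the widest.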

How the data were processed

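Primary hepatocytes from 4 WT and 3 WDR6-WKO mice were sequenced, 1 library each. The authors prepared libraries with the NEBNext Ultra kit, sequenced them on an Illumina HiSeq, aligned reads with Bowtie2 2.2.3 to mm10, per the submitters' processing notes, and deposited raw read counts per gene symbol. The counting tool, its annotation and its strand setting are not given in the sources used here. The labels give every column its genotype and replicate number. Each library is labelled as a separate sample, and p-values measure the spread between these samples. Libraries of the same number come from mice of different genotypes, and the labels name no batch or pairing. No block therefore entered the main model, and a replicate block was run as an alternative.

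The deposited counts were tested with edgeR 4.0.16 under R 4.3.3 (TMM, its filter on expression, robust quasi-likelihood test, Benjamini-Hochberg over 14779 genes). Standard errors follow from the F statistic. Precision is set by 17816913 to 23668940 reads a library and a biological coefficient of variation of 7.40%. Alternatives were other size factors, other filters, DESeq2 1.42.0, limma-voom (limma 3.58.1), a replicate block and leaving out each library. The scripts were tested on simulated data. Exon lengths, shared 50-base stretches and overlaps came from GENCODE on GRCm38, and promoters from RefSeq.

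The members and lists were chosen with earlier results of these data known. Named were the 8 genes, *Wdr6*, every list gene past an adjusted p of 0.05, the most highly counted of the others (up to 3 a list), *Srebf1*, *Scap*, *Insig1*, *Insig2*, and the 5 genes most like and 3 most unlike the members. Some genes that meet this rule are not reported here by name. Of the markers, those of stellate cells (8 tested, 1 higher), endothelial cells (8, 0 called) and bile duct cells (5, 2 higher) were tested too. Over all genes 6.65% were higher and 6.18% lower. Of 6 leukocyte markers, 0 were among the rows.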

Additional observations from a re-analysis of the deposited data

How the results depend on the processing

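Across 15 alternatives, 106 of 120 values of the 8 cholesterol synthesis genes kept their direction and their side of the threshold, 13 changed sign and 1, *Idi1* without WDR6-WKO replicate 3, passed it. The sign changes were in *Cyp51*, *Fdft1*, *Sqle* and *Fdps*. On the log2 scale *Cyp51* was -0.00255 with median-of-ratios size factors and -0.00265 with DESeq2, *Fdft1* 0.0198 and *Sqle* 0.0152 with library sizes alone, and *Sqle* 0.0123 with the replicate block. With each library left out in turn, *Cyp51* ranged from -0.0574 to 0.0594, *Fdft1* from -0.0466 to 0.0616, *Sqle* from -0.0580 to 0.0173, *Fdps* from -0.0469 to 0.326 and *Insig1* from -0.0282 to 0.0734. *Hmgcs1* ranged from -0.16 to -0.04, *Lss* from 0.03 to 0.19, *Srebf2* from -0.11 to -0.05 and *Idi1* from -0.29 to -0.12. The count of members called lower ranged from 0 to 1, and list genes called numbered 1 to 7 higher and 4 to 11 lower, the upper ends without WDR6-WKO replicate 3. In that setting 2150 genes were higher and 2083 lower of all 14796 tested. Of 150 values of the 10 called list genes, 120 kept their call and 30 lost it, with 0 sign changes. Over all genes, same-numbered libraries deviated together only weakly (r of 0.04, 0.02 and 0.04). Each deviation is taken from the mean of few libraries, so these values cannot show whether same-numbered libraries shared any handling. The replicate block gave 945 higher and 817 lower genes, and *Lrp1* and *Gramd1b* then missed the threshold. Library sizes alone moved the split over all genes to 1212 higher and 696 lower, with 0 of 8 members called. *Fdps* rests on 22 to 36 reads a library.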
